A study of Mus musculus with 24 samples.

Results

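The genes described here were 47 interferon-stimulated genes of the mouse, with the 2'-5' oligoadenylate synthetase (Oas) family left out. They were chosen by name from general knowledge of the interferon response, but with earlier results of these data known. All 47 were among the 36528 gene rows measured in each library, and all 47 passed the filter on low counts that left 17468 genes to be tested. Their RNA was sequenced from sorted cells of mouse small intestine tumours. The series was designed to deplete tumour cells that express Lgr5, a receptor marking intestinal stem cells, with diphtheria toxin (DT), a protein that stops translation in cells able to take it up. The groups were DT at 24 h, saline at 24 h, DT at 48 h, saline at 48 h, DT at 96 h and saline at 96 h, with 4 libraries in each and 24 in all. Every group, saline included, carried the genotype recorded as AKVPL, which the labels do not spell out, and the sort recorded as bulk under sample names that contain EpCAM, an epithelial surface protein. The labels give neither the age of the animals nor whether each library of a group had an animal of its own. P-values therefore rest on the spread between these libraries alone, and that spread may be technical.

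Interferons are secreted proteins that bind receptors on the cell surface and, through Janus kinases, activate the STAT transcription factors. Type I and type III interferons lead to a complex of STAT proteins and IRF9 that binds the interferon-stimulated response element (ISRE), whereas interferon gamma leads mainly to STAT dimers that bind the gamma-activated site (GAS). The genes induced include sensors of foreign nucleic acid, factors that carry the signal on, the ubiquitin-like modifier ISG15 and its enzymes, and effectors that block steps of viral or bacterial growth. In intestinal epithelium the same set of genes is known as a barrier response to viruses.

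Sequences upstream of members are shown because the ISRE is the element that several of them share. Promoter windows of 250 bases before to 50 after a start came from RefSeq on GRCm38.p6 and were present for 37 of the 47 members. The letters GAAANNGAAA, searched on both strands, occurred in the windows of 17 of these 37 members (45.9%), against 1079 of 27025 genes with a window (3.99%). The letters TTCNNNGAA, the core of the GAS, occurred in 10 of 37 members (27.0%), against 9.55% of all genes with a window, and 5 members held both motifs while 15 held neither. A match is only a description of these letters. In the stretches below, read 5′ to 3′ on the strand of the gene, capitals mark the ISRE matches, which read TTTCNNTTTC where they lie on the opposite strand.
Isg15 (chr4:156200860-156200911, minus strand): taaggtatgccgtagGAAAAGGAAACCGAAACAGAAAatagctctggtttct
Bst2 (chr8:71537572-71537617, minus strand): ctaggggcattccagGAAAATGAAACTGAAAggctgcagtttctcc
Gbp3 (chr3:142559984-142560029, plus strand): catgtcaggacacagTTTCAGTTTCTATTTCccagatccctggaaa
Ifit3 (chr19:34583358-34583431, plus strand): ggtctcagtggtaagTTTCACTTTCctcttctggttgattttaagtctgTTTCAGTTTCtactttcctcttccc
Ifit3b (chr19:34607754-34607827, plus strand): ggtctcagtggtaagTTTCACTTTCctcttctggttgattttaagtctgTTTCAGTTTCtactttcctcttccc
Ifit1 (chr19:34640770-34640828, plus strand): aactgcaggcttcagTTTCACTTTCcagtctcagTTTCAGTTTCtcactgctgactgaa

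Isg15 held 3 overlapping matches, at positions -78 to -57 relative to its start. The stretches of Ifit3 and Ifit3b were identical over all 74 bases. For both genes the stretch lies before the start used for the window but inside the full RefSeq extent of the gene, which begins earlier. Ifit1, the neighbour of this pair on chromosome 19, also held 2 matches.

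Library depth, in units of 1e6 counts, was 11.3 to 27.6 in DT and 13.1 to 14.6 in saline libraries at 24 h. It was 10.9 to 27.7 in DT and 15.6 to 27.6 in saline libraries at 48 h, and 11.5 to 24.3 in DT and 14.4 to 24.2 in saline libraries at 96 h. Lgr5, the gene that the depletion targets, lay at 77.0 to 84.9 CPM (counts per 1e6 counts, scaled between libraries by TMM) in the DT libraries at 24 h, against 179 to 217 CPM in the saline libraries. Its log2 fold change was -1.30 at 24 h, -0.60 at 48 h and -0.43 at 96 h. Replicate 3 of the DT group at 48 h stood apart, with 171 CPM of Lgr5, inside the saline range of that time, and a first principal component of 2.97, where the other DT libraries of 48 h had -30.9 to -18.4. Epithelial markers summed to 8567 to 10247 CPM in DT and 8551 to 9353 CPM in saline libraries at 24 h. Of the 9 epithelial markers, 3 were higher and 3 lower in DT at an adjusted p under 0.05 in edgeR's test. Fibroblast markers were also abundant, at 2827 to 6479 CPM in DT and 3319 to 3892 CPM in saline libraries.

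At 24 h, 44 of the 47 members rose in the DT libraries relative to saline, 25 of them by at least 2-fold, and none was called lower. The 3 others, Ifit1, Samd9l and Irf1, did not pass the test. Over all genes tested, 38.7% passed the same threshold (an adjusted p under 0.05 by the Benjamini-Hochberg method, from edgeR's quasi-likelihood test), 19.9% as higher and 18.9% as lower in DT. The median log2 fold change of the members was 1.10, a 2.15-fold difference, against a median of -0.00 over all genes tested. The members' log2 fold changes ran from -0.19 to 3.31. A 2-fold rise is a log2 fold change of 1. Called or not, 1.59% of all genes tested lay from 1 to 1.25, 0.905% from 1.25 to 1.5 and 0.481% from 1.5 to 1.75. From 1.75 to 2 the share was 0.229%. The members' shares in these ranges were 8.51%, 10.6%, 10.6% and 8.51%. Each higher range held a smaller share of all genes. In 44 members every DT library lay above every saline library, a pattern found in 18.1% of all genes tested, and in 0 members every DT library lay below, against 16.2%. Summed over the members, expression was 3983, 4182, 4520 and 5367 CPM in the 4 DT libraries, against 2780.5, 2701, 2824 and 2645 CPM in the 4 saline libraries of 24 h. The groups did not overlap. Ifitm3 and Lgals3bp, with means of 841 and 462 CPM over all libraries, weigh heavily in such sums. The median over members was 36.8, 43.2, 44.9 and 62.0 CPM in DT and 19.4, 20.8, 22.1 and 20.6 CPM in saline libraries. In such mixed RNA, more cells of a type and more RNA per cell cannot be told apart.

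**Figure D1:**
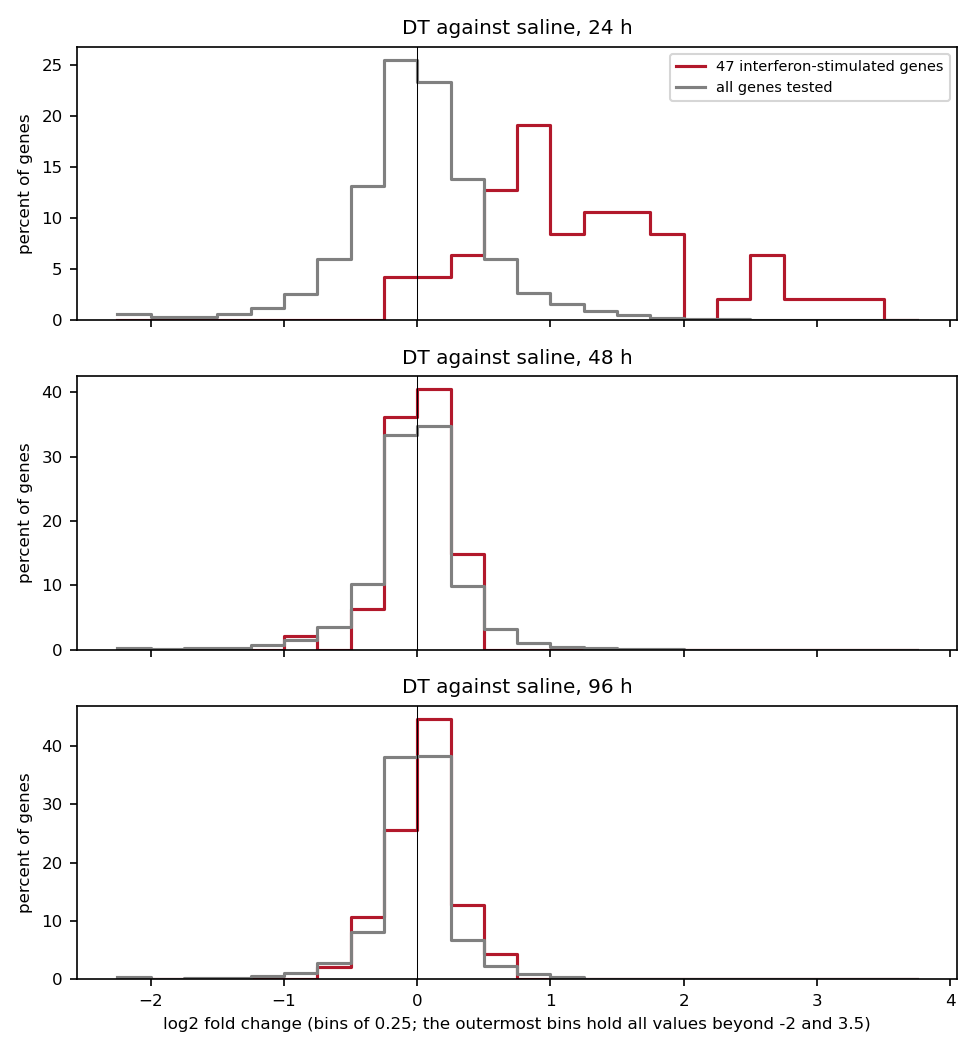
Distribution of log2 fold changes (horizontal axis, bins of 0.25) of DT against saline at 24, 48 and 96 h, as a percent of genes (vertical axis), for the 47 interferon-stimulated genes (red) and for all 17468 genes tested (grey). At 24 h the red curve is centred near its median of 1.10, whereas at 48 and 96 h it lies over the grey one, with medians of 0.06 and 0.12.

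The sensors of foreign nucleic acid, grouped here with regulators of such sensors, rose together at 24 h, 6 of 6, with a median log2 fold change of 0.97. Trim25, a ubiquitin ligase that activates the RNA sensor RIG-I, held 162, 150, 143 and 170 CPM in DT libraries, against 111, 112, 119 and 113 CPM in saline libraries. Ddx58, which encodes RIG-I, a sensor of viral RNA ends, held 156, 169, 144 and 205 CPM in DT and 89.0, 102, 91.9 and 89.0 CPM in saline libraries. Eif2ak2, the kinase PKR that halts translation on double-stranded RNA, held 79.3, 79.5, 74.3 and 88.9 CPM in DT and 52.6, 47.8, 54.7 and 50.5 CPM in saline libraries. In each of the 3, all DT libraries lay above all saline libraries, and the gap was widest for Ddx58. The log2 fold changes were 0.46 ± 0.06 (SE) for Trim25, 0.86 ± 0.10 for Ddx58 and 0.65 ± 0.09 for Eif2ak2. Adjusted p was 4.3e-06, 8.6e-07 and 3.4e-06 in that order in edgeR's test. The less abundant sensors had larger changes. These were Ifih1 (MDA5, a sensor of long double-stranded RNA; 1.08 ± 0.13), Zbp1 (a sensor of nucleic acid in the Z form; 1.32 ± 0.18) and Dhx58 (LGP2, a regulator of the other RNA sensors; 2.31 ± 0.24).

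Of the 4 transcription factors, 3 rose at 24 h and Irf1 did not pass the test. Irf9, the DNA-binding part of the complex that acts on the ISRE, held 126, 117, 117 and 147 CPM in DT libraries, against 94.3, 92.1, 95.7 and 91.7 CPM in saline libraries. Stat2, a partner of IRF9 in that complex, held 83.7, 91.0, 74.2 and 107 CPM in DT and 51.5, 52.0, 64.9 and 50.1 CPM in saline libraries. The groups did not overlap in either gene, with log2 fold changes of 0.44 ± 0.08 for Irf9 (edgeR adjusted p = 1.8e-04) and 0.71 ± 0.11 for Stat2 (adjusted p = 2.0e-05). Irf1, an early factor best known from the interferon gamma response, held 87.9, 76.3, 78.7 and 92.7 CPM in DT and 98.0, 85.3, 108 and 91.5 CPM in saline libraries. These ranges overlapped, and the log2 fold change was -0.19 ± 0.08 (edgeR adjusted p = 0.0612). Irf1 was called lower by limma (adjusted p = 0.0494), with a replicate block (0.0391) and in 10 of the 24 fits that each left out 1 library (0.0140 to 0.0381). These left out DT replicates 1 and 4 and saline replicates 2 and 4 of 24 h, DT replicates 2 and 3 and saline replicate 4 of 48 h, and DT replicates 3 and 4 and saline replicate 3 of 96 h. Irf7, the factor that amplifies type I interferon production, was singled out after its values were seen. Its levels were 116, 152, 159 and 236 CPM in DT and 30.5, 22.5, 35.1 and 22.1 CPM in saline libraries, a log2 fold change of 2.59 ± 0.22 (edgeR adjusted p = 1.9e-08), or 6.01-fold.

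All 4 genes of the ISG15 system rose at 24 h, with a median log2 fold change of 1.18. Isg15, the ubiquitin-like protein that is attached to other proteins during the response, held 41.6, 47.1, 59.0 and 69.2 CPM in DT libraries, against 15.4, 16.9, 15.2 and 11.5 CPM in saline libraries. Usp18, which removes ISG15 and also restrains signalling at the type I receptor, held 127, 150, 165 and 215 CPM in DT and 78.6, 80.1, 74.6 and 73.2 CPM in saline libraries. Uba7, the enzyme that activates ISG15, held 61.5, 59.2, 55.8 and 77.0 CPM in DT and 42.6, 41.2, 52.1 and 43.2 CPM in saline libraries. No DT library overlapped with saline in any of these genes, and in Uba7 the gap was narrow. The log2 fold changes were 1.88 ± 0.16 for Isg15 (3.68-fold; edgeR adjusted p = 1.2e-08), 1.10 ± 0.12 for Usp18 (2.4e-07) and 0.50 ± 0.10 for Uba7 (3.4e-04). Herc6, the ligase that attaches ISG15 in the mouse, had a log2 fold change of 1.26 ± 0.16.

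Of the 14 antiviral effectors, 12 rose at 24 h, with a median difference of 2.83-fold. Both the widest rise and most of the exceptions of the whole gene group were found here. Ifit3, an RNA-binding protein of the IFIT family, held 3.51, 11.6, 10.7 and 13.5 CPM in DT libraries, against 0.763, 1.20, 1.27 and 0.771 CPM in saline libraries. Its copy Ifit3b held 2.14, 3.97, 3.73 and 4.35 CPM in DT and 0.416, 0.675, 0.564 and 0.463 CPM in saline libraries. Mx2, a dynamin-like GTPase that blocks viruses, held 20.9, 21.4, 17.6 and 31.9 CPM in DT and 2.15, 2.70, 3.95 and 2.62 CPM in saline libraries. In these 3 genes the lowest DT library stood clear of the highest saline library, and DT replicate 1 was well below the other DT libraries for both Ifit3 genes. The log2 fold changes were 3.31 ± 0.37 for Ifit3 (edgeR adjusted p = 3.3e-07), 2.75 ± 0.32 for Ifit3b (4.3e-07) and 3.002 ± 0.25 for Mx2 (6.2e-09). Ifit3 and Ifit3b are near-identical neighbours, and the deposited counts are of uniquely aligned reads. Reads that match both genes may thus have been left out, so both levels are uncertain, and their values are not independent.

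Bst2, or tetherin, which holds budding viruses at the cell surface, was among the most abundant effectors after toxin. It held 104, 122, 169 and 151 CPM in DT libraries at 24 h, against 21.8, 22.4, 22.1 and 21.5 CPM in saline libraries. The saline libraries lay within 1 CPM of each other and the lowest DT library far above them, for a log2 fold change of 2.64 ± 0.18 (6.23-fold; edgeR adjusted p = 1.5e-09). Ifitm3, a membrane protein that blocks virus entry, was by far the most abundant member, also per gene length, at a mean of 1497 nRPKM (the authors' size-factor-adjusted RPKM) in DT and 1267 nRPKM in saline libraries of 24 h. In CPM it held 988, 972, 1160 and 1235 in DT and 964, 924, 890 and 914 in saline libraries. The DT libraries lay above the saline libraries only narrowly, and the log2 fold change was 0.24 ± 0.09 (edgeR adjusted p = 0.0374). That call was not kept by limma (adjusted p = 0.0602) or in 11 of the 24 fits that each left out 1 library, among them DT replicates 3 and 4 (0.0874 and 0.162) and saline replicates 1 to 4 of 24 h (0.0557, 0.0871, 0.124 and 0.0955). The other 5 fits left out DT replicate 2 (0.0582) or saline replicate 4 (0.0543) of 48 h, or DT replicates 3 (0.0581) and 4 (0.0539) or saline replicate 3 (0.0562) of 96 h.

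Ifit1 and Samd9l were the effectors that did not pass the test at 24 h. Ifit1, which binds viral RNA caps, held 25.4, 25.4, 29.8 and 49.4 CPM in DT libraries, against 33.5, 26.5, 30.1 and 21.6 CPM in saline libraries. The groups overlapped, with DT replicate 4 alone above the saline range, and the log2 fold change was 0.22 ± 0.21 (edgeR adjusted p = 0.429). Without DT replicate 4 it was -0.05. Samd9l, a cytoplasmic protein that restrains viruses and cell growth, held 87.2, 89.5, 93.7 and 95.8 CPM in DT and 86.0, 101, 90.0 and 92.9 CPM in saline libraries (log2 fold change -0.01 ± 0.10, edgeR adjusted p = 0.928). Ifit1 is thus a member with ISRE matches in its window that did not pass the test, whereas its neighbours Ifit2, Ifit3 and Ifit3b, within 27.5 kb of the next gene on either side, rose by 1.62, 3.31 and 2.75 on the log2 scale.

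The remaining effectors all rose, by 0.54 to 1.90 on the log2 scale. Rtp4, a chaperone-like protein, had a log2 fold change of 1.90 ± 0.17, and Mx1, the nuclear relative of Mx2 in the mouse, of 1.66 ± 0.19. Trim30a, a tripartite motif protein, had 1.39 ± 0.26. Cmpk2, a nucleotide kinase, and its neighbour Rsad2, or viperin, which makes a chain-terminating nucleotide, had 1.18 ± 0.18 and 0.90 ± 0.14. The exonuclease Isg20 had the smallest change of these, 0.54 ± 0.10.

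**Figure D2:**
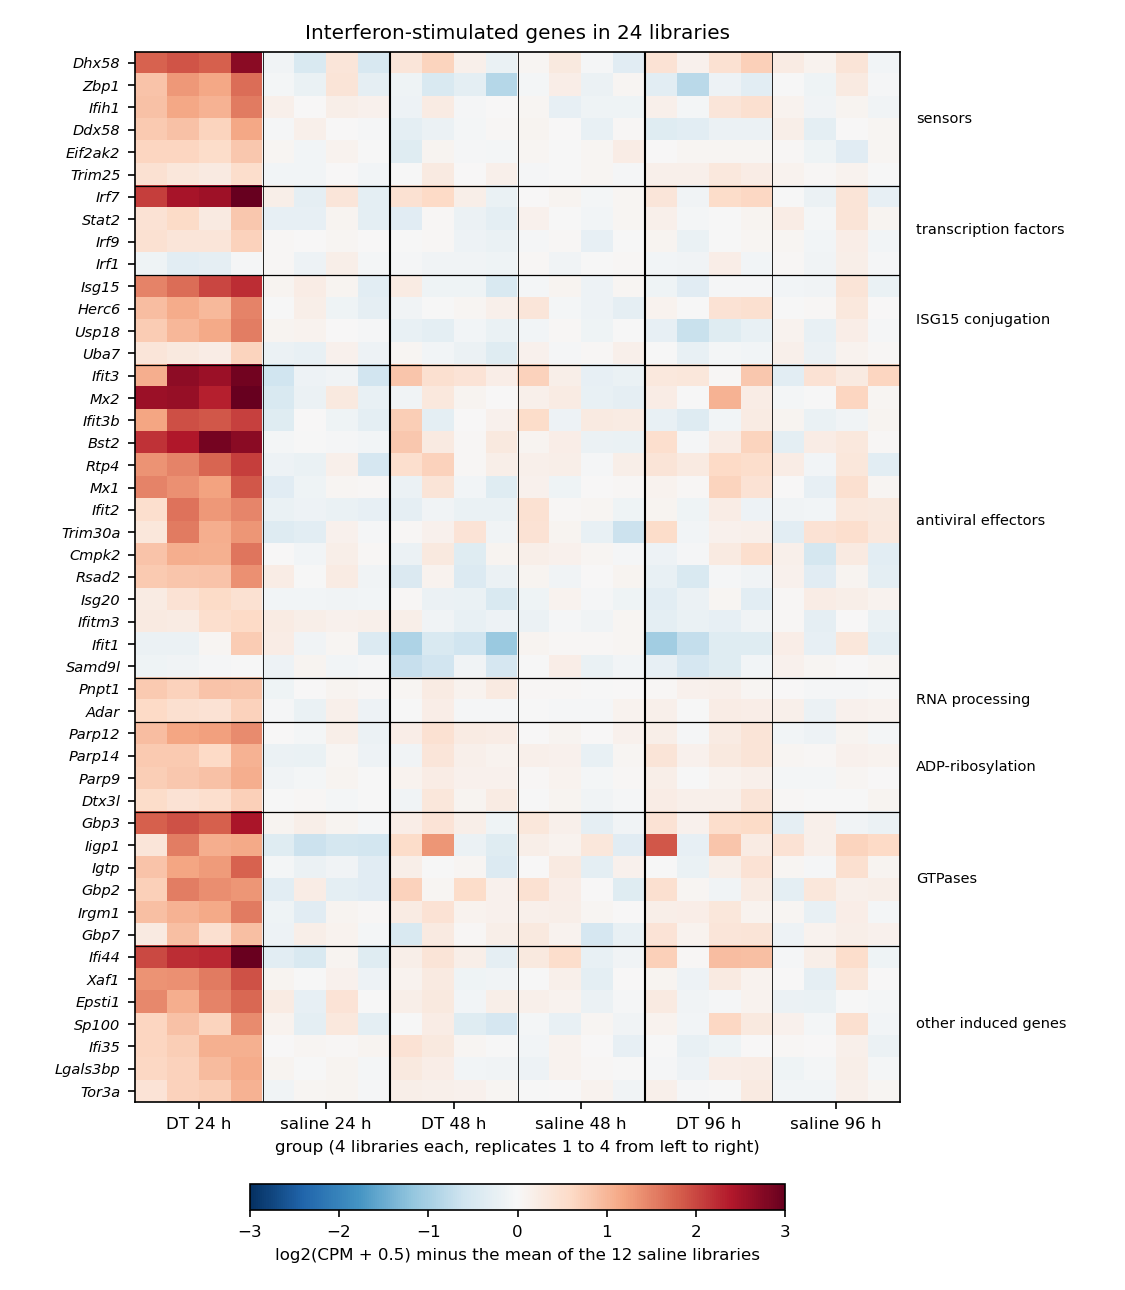
Expression of the 47 interferon-stimulated genes (rows, grouped by role and ordered within each role by log2 fold change at 24 h) in the 24 libraries (columns, 4 per group, DT left of saline at each time). Colour gives log2(CPM + 0.5) minus the mean of the 12 saline libraries, and the block of red in the DT libraries of 24 h is absent from Irf1 and Samd9l, shows in replicate 4 alone for Ifit1 and is faint for Ifitm3.

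Both genes of RNA processing rose at 24 h. Pnpt1, a ribonuclease of mitochondria, held 96.0, 90.7, 102 and 99.7 CPM in DT libraries at 24 h, against 50.8, 56.1, 59.2 and 57.3 CPM in saline libraries. Adar, which edits adenosine to inosine in double-stranded RNA, held 137, 127, 123 and 148 CPM in DT and 88.4, 78.4, 101 and 82.3 CPM in saline libraries. The groups stood apart in both genes. Pnpt1 had a log2 fold change of 0.80 ± 0.06, which gave the smallest adjusted p of all members (edgeR, 7.7e-10), and Adar one of 0.61 ± 0.08 (4.6e-06).

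All 4 genes of ADP-ribosylation passed the test at 24 h. Parp14, an ADP-ribosyl transferase, held 84.9, 85.0, 74.6 and 101 CPM in DT libraries, against 43.5, 42.7, 51.3 and 43.6 CPM in saline libraries. Parp9, a partner of the ubiquitin ligase DTX3L, held 80.4, 85.3, 89.2 and 103 CPM in DT and 44.8, 46.3, 50.6 and 47.6 CPM in saline libraries. Dtx3l itself held 79.4, 73.8, 77.3 and 88.7 CPM in DT and 53.9, 55.5, 52.1 and 54.2 CPM in saline libraries. The DT libraries were higher throughout in the 3 genes. The log2 fold changes were 0.93 ± 0.10 for Parp14 (edgeR adjusted p = 1.6e-07), 0.92 ± 0.07 for Parp9 (1.1e-09) and 0.56 ± 0.08 for Dtx3l (4.6e-06), beside 1.23 ± 0.10 for Parp12. Parp9 and Dtx3l overlap by 558 bases on chromosome 16, and the use of strand in counting is not given in the sources used here, so reads of their shared stretch cannot be assigned with certainty.

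The interferon-inducible GTPases, which attack the vacuoles of intracellular microbes, rose in 6 of 6 cases at 24 h, with a median log2 fold change of 1.53. Irgm1, a regulatory member of the immunity-related GTPases, held 49.9, 55.3, 58.9 and 78.2 CPM in DT libraries, against 23.9, 20.8, 28.1 and 27.2 CPM in saline libraries. Gbp3, a guanylate-binding protein, held 45.1, 49.1, 45.4 and 71.2 CPM in DT and 13.5, 14.2, 13.3 and 12.3 CPM in saline libraries. Its neighbour Gbp7 held 14.0, 21.9, 16.3 and 22.0 CPM in DT and 10.3, 13.1, 12.4 and 11.02 CPM in saline libraries. DT replicate 4 was the highest library of all in each of the 3, and the groups did not overlap, though in Gbp7 they came close. The log2 fold changes were 1.28 ± 0.12 for Irgm1 (edgeR adjusted p = 2.7e-08), 1.98 ± 0.15 for Gbp3 (2.9e-09) and 0.67 ± 0.17 for Gbp7 (0.00344). Gbp2, next to Gbp3 on chromosome 3, had 1.51 ± 0.21, and Igtp and Iigp1 had 1.55 ± 0.19 and 1.88 ± 0.45. Guanylate-binding proteins are a family of similar genes, and reads that match several of them may be missing from counts of uniquely aligned reads.

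All 7 genes with other or less defined roles rose at 24 h, with a median log2 fold change of 0.97. Lgals3bp, a secreted binding partner of galectins, held 619, 652, 768 and 867 CPM in DT libraries, against 422, 396, 420 and 383 CPM in saline libraries. Ifi35, a leucine zipper protein of the response, held 36.8, 39.2, 49.2 and 49.0 CPM in DT and 23.3, 24.4, 23.9 and 24.7 CPM in saline libraries. Tor3a, of the torsin family, held 28.3, 34.5, 35.4 and 43.9 CPM in DT and 19.4, 22.0, 22.1 and 20.6 CPM in saline libraries. All DT libraries were above all saline libraries in the 3, with log2 fold changes of 0.84 ± 0.11 for Lgals3bp (edgeR adjusted p = 2.2e-06), 0.86 ± 0.11 for Ifi35 (1.3e-06) and 0.76 ± 0.10 for Tor3a (2.4e-06). Ifi44, which restrains cell growth and viruses, had the largest change of these 7, 2.74 ± 0.24, at a mean of 42.1 ± 13.6 CPM in DT and 6.28 ± 1.21 CPM in saline libraries (SD, n = 4 each). Xaf1, Epsti1 and the nuclear body protein Sp100 had 1.59 ± 0.14, 1.42 ± 0.15 and 0.97 ± 0.20.

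The DT libraries of 24 h were not alike in the size of the rise. Replicate 4 was the highest of its group in 39 of the 47 members and replicate 1 the lowest in 31. Members made up 0.411% to 0.553% of all counts in these libraries, against 0.261% to 0.284% in the saline libraries of 24 h. Fibroblast markers summed to 2827, 6398, 6479 and 4079 CPM in DT replicates 1 to 4 of 24 h, and macrophage and monocyte markers to 220, 556, 409 and 395 CPM. Replicate 1 was the lowest in both marker sums and in the member sum. Replicate 4, with the highest member sum, was below replicates 2 and 3 in both marker sums. A link between these marker sums and the size of the rise was not tested.

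Markers of other cell types are given because such cells also express these genes. At 24 h the pan-leukocyte marker Ptprc lay at 2.91 to 12.4 CPM in DT and 7.02 to 9.82 CPM in saline libraries. Macrophage and monocyte markers summed to 220 to 556 CPM in DT and 332 to 454 CPM in saline libraries, and 0 of 9 passed edgeR's test. Dendritic cell markers summed to 3.94 to 10.7 CPM in DT and 6.86 to 12.5 CPM in saline libraries, with 1 of 3 tested lower and none higher. Neutrophil markers summed to 5.18 to 9.17 CPM in DT and 2.93 to 10.9 CPM in saline libraries, with 0 of 4 called. These ranges overlapped. T and NK cell markers stayed at or below 1.30 CPM in DT and 1.13 CPM in saline libraries, with Cd3g, Nkg7 and Ncr1 at 0 counts in every library of 24 h. B cell markers reached 1.96 CPM in DT and 1.72 CPM in saline libraries, with Ms4a1 at 0. Of the fibroblast markers 2 of 6 were called higher in DT, and of the endothelial markers 1 of 4, at sums of 222 to 243 CPM in DT and 157 to 224 CPM in saline libraries. At 48 h Ptprc lay at 1.79 to 2.55 CPM in DT and 2.59 to 10.7 CPM in saline libraries, and was not called. Macrophage and monocyte markers summed to 188 to 319 CPM in DT and 191 to 437 CPM in saline at 48 h. Of these 9, 1 was lower in DT. At 96 h they summed to 158 to 187 CPM in DT and 143 to 232 CPM in saline, with 0 called. Fibroblast markers summed to 6843 to 11208 CPM in DT and 3532 to 7182 CPM in saline at 48 h. At 96 h their sums were 5249 to 9677 CPM and 2676 to 9410 CPM, with 0 of 6 called at either time. The part of any of these cells in the rise of the members, or in its absence later, was not tested.

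Genes that carry the interferon signal were described from a list of 41 ligands, receptors, kinases, sensing adaptors and restraints, of which 30 passed the filter. At 24 h, 6 of these 30 were higher (20%) and 5 lower (16.7%) in DT, with a median log2 fold change of -0.02. These shares were close to the 19.9% and 18.9% of all genes tested. Of those that rose, 5 are named here. Ube2l6, the conjugating enzyme of ISG15, rose to 19.8 CPM in DT, against 8.06 CPM in saline (log2 fold change 1.30 ± 0.16). The DNA sensor Cgas rose to 9.64 CPM in DT, against 4.27 CPM in saline (1.17 ± 0.14), and Samhd1, which depletes nucleotides, to 87.0 CPM in DT, against 46.6 CPM in saline (0.90 ± 0.07). The kinase Tbk1 and the adaptor Myd88 had smaller rises of 0.46 ± 0.08 and 0.33 ± 0.10.

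The receptor and kinase genes upstream of the STATs did not rise. Ifnar1, a chain of the type I receptor, held 95.9, 100, 96.7 and 90.9 CPM in DT libraries of 24 h, against 117, 124, 116 and 132 CPM in saline libraries. No DT library reached the saline range, and Ifnar1 fell by 0.35 on the log2 scale (edgeR adjusted p = 4.1e-05). Jak2, a kinase of the interferon gamma receptor, fell by 0.33, the receptor chain Ifngr2 by 0.22, the feedback inhibitor Socs3 by 0.33 and the factor Irf5 by 0.43. Ifnar2, the other chain of the type I receptor, had a log2 fold change of 0.07 ± 0.10 and Jak1 one of 0.04 ± 0.06, and neither passed the test.

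None of the 11 interferon genes listed passed the filter on low counts, and other interferon genes were not examined. The 11 had 318 counts in all 24 libraries together, 78 of them in the DT and 43 in the saline libraries of 24 h, which differ in depth. Per library of 24 h they summed to 0.628 to 1.20 CPM in DT and 0.278 to 1.80 CPM in saline, and these ranges overlapped. Ifnb1, the listed type I interferon with the most counts, had 23 counts in the DT and 16 in the saline libraries of 24 h. Ifng had 0 counts in every library, and a floor of 3 counts in the 441 units of 1e6 counts of all libraries corresponds to 0.00680 CPM. No test of a difference in these listed interferon genes is given, because none passed the filter.

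By 48 h the members as a group lay close to saline. None of the 47 was called higher in DT than in saline and 2 were lower, Ifit1 and Samd9l, with 11.3% of all genes tested called, 4.83% as higher and 6.5% as lower. At an unadjusted p under 0.05 in edgeR's test the members' number was 9 (19.1%), against 26% of all genes tested. DESeq2 called 2 members (4.26%), against 12.7% of all genes, and limma called 8 (17.0%; 3 higher, 5 lower), against 22.8%. The median log2 fold change of the members was 0.06. All DT libraries lay above all saline libraries in 2 members and below them in 1, against 7.16% and 8.65% of all genes tested. Their summed expression was 2802, 2752, 2476 and 2474 CPM in DT libraries, against 2558, 2713, 2539 and 2692 CPM in saline libraries, and the groups overlapped. The median over members was 17.9, 20.7, 18.9 and 13.7 CPM in DT and 20.7, 19.8, 19.7 and 19.4 CPM in saline libraries. Isg15 held 17.2, 13.2, 13.1 and 10.5 CPM in DT and 13.7, 15.3, 13.0 and 15.2 CPM in saline libraries (log2 fold change -0.09 ± 0.16, edgeR adjusted p = 0.770). Bst2 held 40.1, 27.7, 23.4 and 28.0 CPM in DT and 23.9, 26.4, 19.98 and 19.8 CPM in saline libraries (0.40 ± 0.18, edgeR adjusted p = 0.156). Both genes had lain clear of saline at 24 h and overlapped with it here.

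Ifit1 held 14.8, 20.7, 18.9 and 13.0 CPM in DT libraries of 48 h, against 30.2, 29.5, 29.6 and 29.9 CPM in saline libraries. Every DT library lay below every saline library, and Ifit1 fell by 0.84 ± 0.21 on the log2 scale (1.79-fold lower; edgeR adjusted p = 0.0133). The call was lost without DT replicate 4 (log2 fold change -0.73, adjusted p = 0.0615). Samd9l held 59.6, 64.6, 88.5 and 67.7 CPM in DT and 95.3, 111, 83.9 and 91.1 CPM in saline libraries. DT replicate 3, the library with Lgr5 in the saline range, lay inside the saline range for Samd9l too and the other 3 below it. Samd9l fell by 0.44 ± 0.10 on the log2 scale (edgeR adjusted p = 0.00559), a call lost in a fit of the libraries of 48 h alone (0.0718). Without DT replicate 3 of 48 h, 2741 genes were called at 48 h over all genes tested, against 1979 with it, and 3 members were called. These were Ifit1 and Samd9l as lower and Pnpt1 as higher (log2 fold change 0.19, edgeR adjusted p = 0.0343). Pnpt1 was also called higher at 48 h without saline replicate 1 of 24 h (0.0477) or DT replicate 1 of 48 h (0.0291). Dtx3l was called higher in the latter fit (0.0367).

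**Figure D3:**
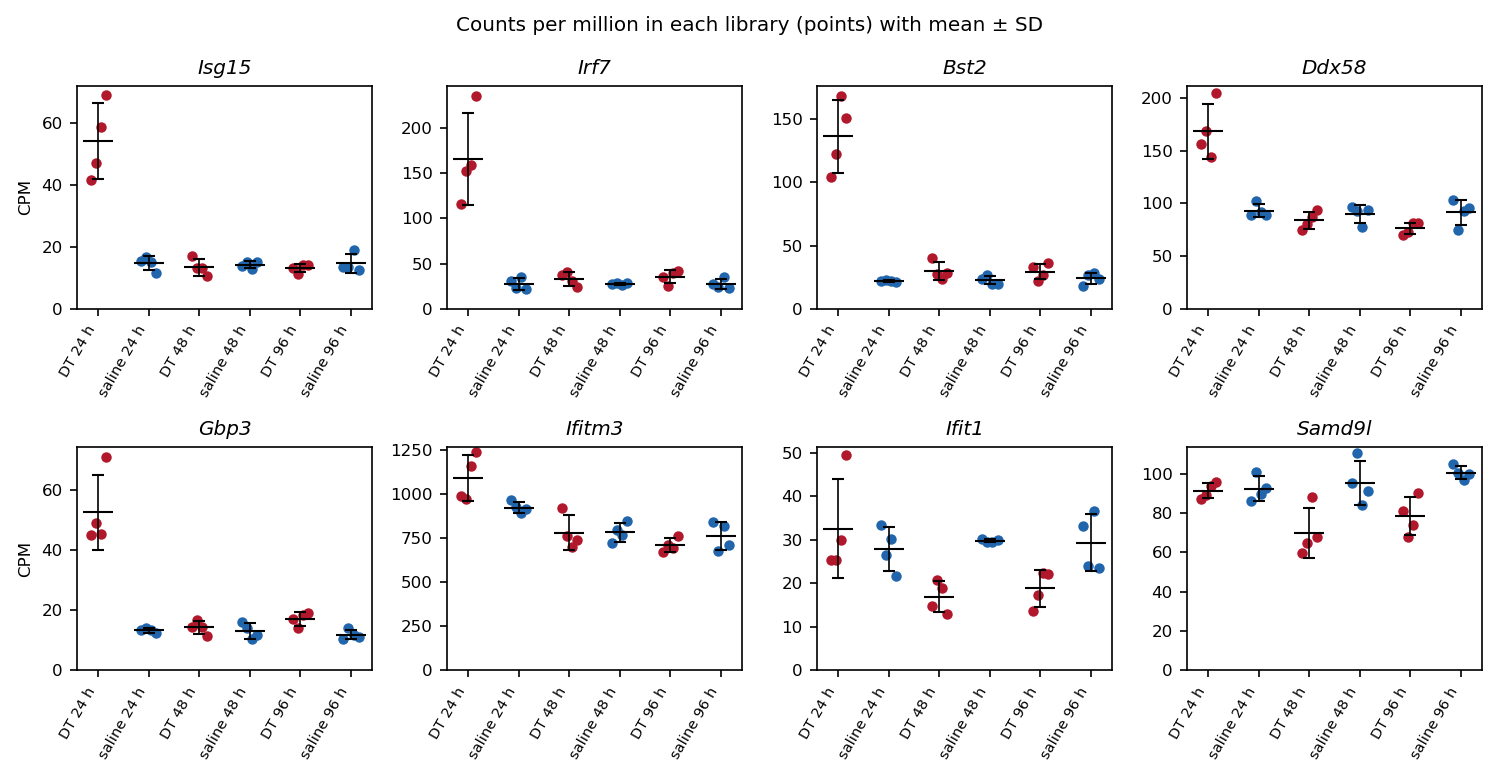
CPM (vertical axes, from 0) of 8 interferon-stimulated genes in each of the 24 libraries (points; DT red, saline blue), with the mean and SD of each group of 4 in black. Isg15, Irf7, Bst2, Ddx58 and Gbp3 are highest in the 4 DT libraries of 24 h, Ifitm3 differs little, and the means of Ifit1 and Samd9l lie below saline in DT at 48 and 96 h.

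At 96 h none of the members was called higher in DT than in saline and 1, Samd9l, was called lower, with 4.03% of all genes tested called, 1.01% as higher and 3.02% as lower. At an unadjusted p under 0.05 in edgeR's test the members' number was 14 (29.8%), a larger share than the 15.5% of all genes tested. DESeq2 called 3 members (6.38%; 1 higher, 2 lower), against 5.31% of all genes, and limma 6 (12.8%; 1 higher, 5 lower), against 8.94%. The median log2 fold change of the members was 0.12. All DT libraries lay above all saline libraries in 3 members and below them in 3, against 4.91% and 6.7% of all genes tested. They summed to 2556, 2400, 2702 and 2805 CPM in DT libraries, against 2710, 2424, 2867 and 2532 CPM in saline libraries, and the groups overlapped. Samd9l held 81.1, 68.0, 74.1 and 90.5 CPM in DT and 105, 100, 96.7 and 100 CPM in saline libraries, with no overlap, and fell by 0.36 ± 0.10 on the log2 scale (edgeR adjusted p = 0.0431). This call was not kept with median-of-ratios scaling (0.0566), the authors' size factors (0.0556), no filter on low counts (0.0629) or a replicate block (0.0672), or in 16 of the 24 fits that each left out 1 library (0.0508 to 0.179). Those fits left out any library of 96 h other than DT replicate 4, any saline library of 24 h, DT replicates 1 and 2 of 24 h, or DT replicate 2 and saline replicates 1 and 4 of 48 h.

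Ifit1 at 96 h held 13.7, 17.2, 22.3 and 22.1 CPM in DT libraries, against 33.2, 24.0, 36.5 and 23.5 CPM in saline libraries. The DT libraries were again the lower ones, but the test was not passed (log2 fold change -0.65 ± 0.21, edgeR adjusted p = 0.0929). It was passed with DESeq2 (0.0468), limma (0.0435) and without DT replicate 4 of 24 h (0.0311). Gbp3 held 17.2, 13.9, 18.6 and 19.1 CPM in DT and 10.4, 14.1, 11.7 and 11.2 CPM in saline libraries, where DT replicate 2 fell inside the saline range. Its log2 fold change of 0.54 ± 0.16 had an adjusted p of 0.0512 in edgeR's test, and of 0.0188 with DESeq2, 0.0457 with limma, 0.0464 with median-of-ratios scaling, 0.0475 with the authors' size factors and 0.0349 with only the libraries of 96 h. It passed in 15 of the 24 fits that each left out 1 library, among them those without DT replicate 2 (0.0425) or saline replicate 2 (0.0358) of 96 h.

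**Figure D4:**
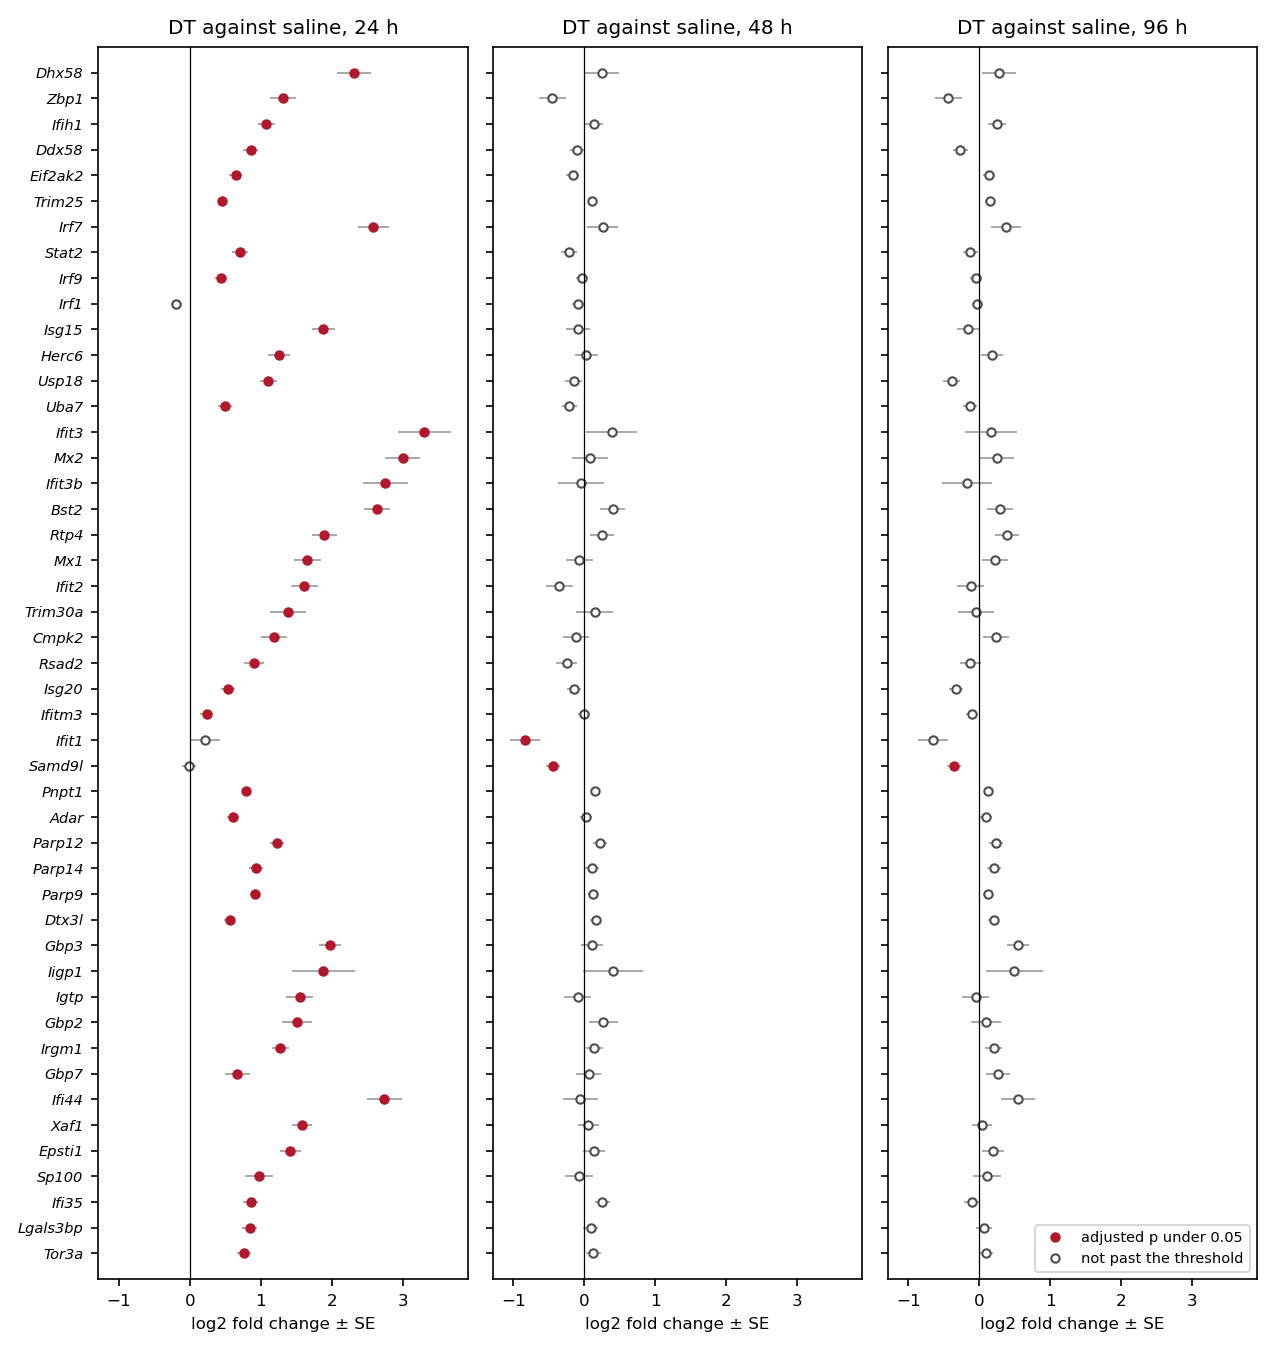
Log2 fold changes with SE (horizontal axis) of the 47 interferon-stimulated genes, DT against saline, at 24, 48 and 96 h, in the row order of the heat map. Filled red points passed edgeR's test at an adjusted p under 0.05: 44 at 24 h, all to the right of 0, 2 at 48 h and 1 at 96 h, all of these to the left.

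The change over time was tested as an interaction. The DT effect was smaller at 48 h than at 24 h in 40 of the 47 members and smaller at 96 h than at 24 h in 41, with none larger. Over all genes tested, the effect at 48 h differed from that at 24 h in 2.89% (2.34% lower, 0.555% higher), and the effect at 96 h in 11.9% (7.82% lower, 4.08% higher), by edgeR's test. Across the 3 times together the effect differed in 42 members, against 7.97% of all genes tested. The 5 members without such a difference were Irf1, Samd9l, Gbp7, Iigp1 and Ifitm3. The change of the DT effect on Bst2 was -2.24 ± 0.25 on the log2 scale at 48 h relative to 24 h and -2.34 ± 0.25 at 96 h relative to 24 h (edgeR adjusted p = 3.2e-05 and 9.6e-06). For Isg15 these changes were -1.97 ± 0.23 and -2.03 ± 0.23 (3.3e-05 and 1.3e-05). In the saline libraries themselves, 0 of 47 members differed between 48 and 24 h or between 96 and 24 h in edgeR's test, with 0.355% (0.177% higher, 0.177% lower) and 3.22% (2.09% higher, 1.13% lower) of all genes tested called. At an unadjusted p under 0.05 the members' numbers were 1 and 4, against 10.8% and 18.1% of all genes tested. Between 48 and 24 h in saline DESeq2 and limma called 0 members each, against 0.893% and 1.78% of all genes, and between 96 and 24 h they called 1 and 2, against 5.63% and 6.68%. Iigp1, singled out after its values were seen, held 3.08 to 4.62 CPM in saline libraries of 96 h, against 1.57 to 2.01 CPM in saline libraries of 24 h. These ranges did not overlap, with a log2 fold change of 1.17 ± 0.46 (edgeR adjusted p = 0.169). Iigp1 was not alone in this. All saline libraries of 96 h lay above all those of 24 h in 4 members and below them in 1. Between 48 and 24 h these numbers were 2 and 1. The share of all genes with such a pattern in saline was not counted. The comparisons at 48 and 96 h relative to 24 h share the libraries of 24 h and are not independent.

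The ISRE matches were set beside the change at 24 h as a description. Of the 17 members with a match 16 rose, with a median log2 fold change of 1.28 and a range from 0.22 to 3.31, and of the 20 without one 18 rose, with a median of 0.85 and a range from -0.19 to 2.74. The lowest member with a match was Ifit1 and the highest Ifit3. Among the members without a match were Irf7 and Ifi44, which rose by 2.59 and 2.74 on the log2 scale. Ifit3 and Ifit3b, both with ISRE matches, are not independent. For the GAS letters the medians lay the other way. Of the 10 members with them 9 rose, with a median of 0.66. Of the 27 without them 25 rose, with a median of 1.18.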

How the data were processed

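PolyA RNA of sorted cells was sequenced, per the labels' protocols. The authors deposited 1 table per library holding, per the file headers, the count of uniquely aligned reads of each gene and its nRPKM. The nRPKM is an RPKM that the authors adjusted by a size factor. GSNAP and GRCm38 are named in the submitters' processing notes. Tool versions, the gene annotation and whether counting used strand: not given in the sources used here. Symbols came from RefSeq on GRCm38.p6, which matched 31049 Entrez identifiers (85.0%). Counts were tested as deposited with edgeR 4.0.16 under R 4.3.3 (quasi-likelihood F test, robust estimation), after TMM scaling and a filter by expression within groups. The fit held all 24 libraries, with 6 group means, 18 residual degrees of freedom and a common biological coefficient of variation of 0.120. Tests were two-sided and p-values adjusted by Benjamini-Hochberg over all 17468 genes, and the SE of a log2 fold change was its size over the square root of F. The deposited RPKM values served only for levels per length and for the authors' size factors. Counting precision is limited by depth, and intervals cover the spread between libraries. Replicates of a group differed by more than sampling noise, with a chi-square per degree of freedom of at least 3.97 in every pair.

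The members and lists were chosen with earlier results of these data known. The values of 1 listed signalling gene are not reported here. Named with every library's value were, in each role, the 3 members with the highest mean CPM (2 in RNA processing), the 3 with the largest and the 3 with the smallest change at 24 h, and those called lower at any time or called at 96 h. The test was tried on simulated counts with known changes before use. Alternatives were median-of-ratios scaling, the authors' size factors, no filter, DESeq2 1.42.0, limma 3.58.1 voom with quality weights, a replicate block, only the libraries of the time compared, and each library left out.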

Additional observations from a re-analysis of the deposited data

Results flagged for a closer look

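The DT effect differed among the 3 times in 23 of the 27 members named with every library's value (interaction in edgeR's quasi-likelihood fit), against 7.97% of all genes tested. These 27 were chosen in part by the size of their change at 24 h, one of the times compared. The adjusted p was 7.7e-06 for Isg15, Bst2 and Parp9, 9.2e-06 for Pnpt1, 1.8e-05 for Usp18 and Mx2, 2.8e-05 for Gbp3 and 8.4e-05 for Ddx58. It was 2.1e-04 for Irgm1, 4.0e-04 for Ifit3b, 6.6e-04 for Eif2ak2 and Ifit3, 7.6e-04 for Stat2, 9.2e-04 for Parp14 and 9.5e-04 for Ifi35. It was 0.00244 for Lgals3bp, 0.00349 for Uba7, 0.00391 for Adar, 0.00441 for Tor3a, 0.0121 for Irf9, 0.0219 for Trim25, 0.0349 for Dtx3l and 0.0489 for Ifit1.

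Single libraries stood far from the other 3 of their group in 9 of 162 group values examined (5.56%), where chance gives about 1 in 20. At 24 h, Gbp3 was 71.2 CPM in DT replicate 4 (others 45.1 to 49.1 CPM). In saline replicate 3 of 24 h, Stat2 was 64.9 CPM (others 50.1 to 52.0 CPM) and Parp14 was 51.3 CPM (others 42.7 to 43.6 CPM). At 48 h, Adar was 104 CPM in DT replicate 2 (others 88.0 to 89.4 CPM) and 98.4 CPM in saline replicate 4 (others 88.7 to 89.7 CPM). At 96 h, Eif2ak2 was 51.3 CPM in DT replicate 1 (others 52.8 to 53.0 CPM) and Irf1 was 110 CPM in DT replicate 3 (others 89.5 to 90.9 CPM). Mx2 was 6.93 CPM in DT replicate 3 of 96 h (others 3.09 to 3.72 CPM) and 5.14 CPM in saline replicate 3 (others 2.99 to 3.24 CPM).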

How the results depend on the processing

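Of the 44 members called higher at 24 h, 43 were called higher in all 31 alternatives run, and Ifitm3 was the exception. Leaving out each library in turn gave 43 to 45 members called at 24 h, with 43 to 44 called higher and Irf1 called lower in some fits. It gave 1 to 4 members called at 48 h, 0 to 4 at 96 h and 37 to 42 with an effect that differed among times. Over all genes tested it gave 5961 to 7420 calls at 24 h, 1154 to 2741 at 48 h and 359 to 882 at 96 h. The lowest counts of the last 2 were without DT replicate 4 of 48 h and DT replicate 2 of 96 h, and the highest without DT replicate 3 and DT replicate 1 of 48 h. With limma, 3975 genes were called at 48 h and 1561 at 96 h, and 8 members at 48 h (3 higher, 5 lower) and 6 at 96 h. With only the libraries of that time, 945 genes and 1 member were called at 48 h and 2 members at 96 h. At 96 h, 3 members were called by DESeq2, 0 without a filter on low counts and 0 with a replicate block. Under the replicate block 45 members were called at 24 h (Irf1 as lower), 2 at 48 h and 40 among times, and 6540, 1717 and 589 genes at the 3 times. The replicate numbers did not pair the libraries: 2 of 12 same-number pairs correlated above 0.1 (range -0.356 to 0.130).

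Turned directions were examined in the 27 members named with every library's value, and there all were in changes that did not pass the test. Without a filter, Ifitm3 at 48 h was 0.018 and Samd9l at 24 h 0.030, and with limma Gbp3 at 48 h was -0.058 (log2). With 1 library left out, log2 fold changes at 24 h ran from -0.055 to 0.33 for Ifit1 and -0.063 to 0.015 for Samd9l. At 48 h they ran from -0.029 to 0.066 for Adar, -0.065 to 0.21 for Gbp7, -0.41 to 0.16 for Ifit3b, -0.095 to 0.056 for Ifitm3, -0.090 to 0.0042 for Irf9 and -0.23 to 0.026 for Isg15. At 96 h they ran from -0.060 to 0.37 for Ifit3, -0.074 to 0.044 for Irf1, -0.078 to 0.038 for Irf9, -0.22 to 0.011 for Isg15 and -0.0050 to 0.47 for Mx2. The cause of these differences was not tested. Depth limits the interferon genes listed, none of which passed the filter on low counts.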

Other observations

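Of the 30 genes of interferon signalling outside the 47 that were tested, 2 were higher (6.67%) and 1 lower (3.33%) in DT at 48 h, where 4.83% and 6.5% of all genes tested were. At 96 h, 2 were higher (6.67%) and 0 lower, against 1.01% and 3.02% of all genes tested. Samhd1, which depletes nucleotides, was 53.3 CPM in DT and 45.9 CPM in saline at 48 h (log2 fold change 0.21 ± 0.07, edgeR adjusted p = 0.0459). At 96 h it was 52.2 CPM in DT and 42.9 CPM in saline (0.28 ± 0.07, edgeR adjusted p = 0.0200). The DNA sensor Cgas was 5.87 CPM in DT and 4.08 CPM in saline at 96 h (0.52 ± 0.14, edgeR adjusted p = 0.0385). All DT libraries lay above all saline libraries in these comparisons. Myd88, an adaptor of Toll-like receptors, was 32.6 CPM in DT and 26.2 CPM in saline at 48 h (0.32 ± 0.10, edgeR adjusted p = 0.0435). Irf5 was 3.87 CPM in DT and 5.58 CPM in saline at 48 h (-0.53 ± 0.16, edgeR adjusted p = 0.0353).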
